A study of Mus musculus with 36 samples.

Results

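Immediate early genes are transcribed within minutes of a stimulus, without the need for new protein, and their transcripts are usually short-lived. In neurons, calcium entry and kinase signalling reach their promoters mainly through the transcription factors CREB and SRF, and most of the products are themselves transcription factors that act on later genes. In the hypothalamus their transcripts are widely used as a mark of recently active neurons. Here 10 of them were followed, given by name: Fos and Fosb, Jun and Junb, Egr1, Egr2 and Egr3, Npas4 and Nr4a1, which encode transcription factors, and Arc, which encodes a protein of dendrites and synapses. They are 10 of the 18820 genes that could be read from the arrays. Each had a single probe set that named no other gene, and all 10 passed the filter on low values that left 15049 genes for testing.

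The data are Affymetrix Mouse Gene 1.1 ST arrays of hypothalamus, 1 array per mouse, from male C57BL/6 mice killed 5 h after an intraperitoneal injection of 50 µl. There were 6 groups of 6 mice. The TNF group received 15 pg TNFα (a treatment that the labels call TNFa low), the IL-6 Low group 50 pg IL-6 and the IL-6 High group 800 pg of it. Combined treatment was given to TNF + IL-6 Low mice (15 pg TNFα with 50 pg IL-6) and to TNF + IL-6 High mice (15 pg TNFα with 800 pg IL-6). Control mice received saline. Injections were made shortly before the dark phase. Values are log2 RMA intensities. Because probes differ in brightness, a level is set only against the same gene on other arrays.

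Some arrays stood apart before any treatment was compared. TNF replicate 4 had lower and upper quartiles of 5.49 and 6.65, against 3.99 to 4.17 and 7.33 to 7.54 on the other 35 arrays, and it was left out unless stated. The methods name 1 excluded TNF array without saying which. TNF replicate 6 had the highest level of striatal markers of the 35 arrays (mean 7.81, 6.24 to 7.06 on the others), and 4 of 5 measured markers were highest there, among them the dopamine receptor Drd1 and the striatal phosphoprotein gene Ppp1r1b. It was also highest for the markers of cortex and hippocampus (7.61, against 6.15 to 7.005), with 5 of 8 measured markers. TNF + IL-6 Low replicate 3 had all 6 measured pituitary markers highest (mean 11.14, against 4.62 to 7.16), and growth hormone (Gh) at 13.57 and prolactin (Prl) at 12.82. TNF replicate 2 was highest for cerebellar markers (7.32, against 4.84 to 5.95, with 7 of 8 measured markers), and TNF replicate 5 for blood (5.98, against 4.34 to 5.52) and astrocyte markers (9.70, against 9.03 to 9.58). Control replicate 1 had the lowest median correlation of the 35 arrays with the others (0.972), the highest meningeal fibroblast markers (8.29, against 5.97 to 8.15) and the lowest markers of cortex and hippocampus (6.15) and of neurons (10.28). TNF + IL-6 High replicate 2 had the highest markers of endothelial cells (7.62) and of choroid plexus (6.46). Control replicates 5 and 6 carry, in their array names, the mouse numbers of TNF + IL-6 High replicates 5 and 6, which differ from those in their own labels. They were kept as Control, and comparisons without them are given below. The mean of the hypothalamic neuropeptide and transcription factor markers lay between 6.81 (TNF + IL-6 High replicate 2) and 8.19 on the 35 arrays. On TNF replicate 4 it was 6.31. These markers include Pomc, at 11.45 on TNF + IL-6 Low replicate 3 and 5.16 to 7.82 on the other arrays used. That replicate is the array with the highest pituitary markers, and the part of pituitary tissue in its Pomc value was not tested. Such levels do not by themselves show how much of the labelled tissue was present. Within whole tissue, fewer cells of a type and less RNA per cell cannot be told apart.

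The promoters of these genes hold short sites at which stimulus-responsive factors can bind. RefSeq promoter windows (GRCm38.p6, 250 bases before to 50 after the start site) were matched for 7 of the genes. The windows of Nr4a1 (chr15:101266596-101266895, plus strand), Npas4 (chr19:4989922-4990221, minus strand) and Junb (chr8:84978699-84978998, minus strand) are shown because Nr4a1 varied between mice with both of the others, and that of Fos (chr12:85473640-85473939, plus strand) because it is the classical member and did not vary with them as closely. Capitals mark the CRE core, TGACG or its complement CGTCA, which forms one side of the palindromic CREB site.
Nr4a1: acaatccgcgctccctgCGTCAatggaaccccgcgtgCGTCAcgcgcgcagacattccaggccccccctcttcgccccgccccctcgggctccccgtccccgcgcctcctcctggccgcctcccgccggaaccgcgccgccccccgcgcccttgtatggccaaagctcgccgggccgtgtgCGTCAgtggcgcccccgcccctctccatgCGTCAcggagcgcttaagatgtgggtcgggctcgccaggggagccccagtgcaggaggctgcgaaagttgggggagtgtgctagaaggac
Npas4: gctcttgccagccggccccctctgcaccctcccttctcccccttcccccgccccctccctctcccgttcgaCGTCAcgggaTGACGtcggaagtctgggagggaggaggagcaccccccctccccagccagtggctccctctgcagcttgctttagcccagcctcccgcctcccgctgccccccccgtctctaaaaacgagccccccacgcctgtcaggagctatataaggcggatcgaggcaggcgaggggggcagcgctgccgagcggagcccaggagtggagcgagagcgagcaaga
Junb: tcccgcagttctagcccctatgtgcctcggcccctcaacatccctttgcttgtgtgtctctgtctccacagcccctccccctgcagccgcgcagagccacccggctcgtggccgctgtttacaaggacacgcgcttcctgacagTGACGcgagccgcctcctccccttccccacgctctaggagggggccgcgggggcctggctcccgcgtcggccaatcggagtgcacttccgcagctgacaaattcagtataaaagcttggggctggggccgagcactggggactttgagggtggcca
Fos: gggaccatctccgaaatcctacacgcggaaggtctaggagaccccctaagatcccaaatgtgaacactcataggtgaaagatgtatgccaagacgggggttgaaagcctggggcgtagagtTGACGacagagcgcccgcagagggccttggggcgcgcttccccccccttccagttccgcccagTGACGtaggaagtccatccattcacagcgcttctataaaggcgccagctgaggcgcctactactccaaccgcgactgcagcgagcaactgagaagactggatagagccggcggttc
The CRE core was found on either strand 4 times in the Nr4a1 window, 2 times in that of Npas4, 1 time in that of Junb and 2 times in that of Fos. It was present in 6 of the 7 genes with a window (Jun lacked it), against 20.8% of all 32851 windows. The full palindromic CRE (TGACGTCA, which contains the CRE core) was in 0 of the 7 (1.79% of all windows). The CArG box, the SRF site, was in 1 (Egr2, 1.63% of all windows), the GC box (GGGCGG) in 6 (35.7%), the EGR site (GCGNGGGCG) in Fosb and Nr4a1 (5.55%), the AP-1 site (TGANTCA) in 0 (7.81%) and the TATA box (TATAAA) in 2 (13.6%). Both strands were searched, and an EGR site can overlap a GC box. A gene with several windows (Egr2) was counted if any of them held the motif. A match is a description of these letters and not of binding, and no match says only that the letters are not in this window.

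The first question was whether any of the genes differed between cytokine-treated and saline-treated mice 5 h after injection. None passed after adjustment over all genes: by limma with Benjamini-Hochberg adjustment, 0 of the 10 passed 0.05 in each of the 5 comparisons with Control (0% of all 15049 genes in each). The smallest adjusted p of a member was 0.911 in TNF and 0.673 in TNF + IL-6 Low. At an unadjusted p under 0.05, 2 of the 10 were called in TNF (5.29% of all genes), both higher (3.16% of all genes were called higher). The corresponding counts were 0 for IL-6 Low (1.4% of all genes) and for IL-6 High (2.07%). With both cytokines they were 0 at the low dose of IL-6 (9.58%) and 0 at the high dose (2.05%). Without Control replicates 5 and 6, 0 members passed after adjustment in any comparison with Control. At an unadjusted p under 0.05, 1 of the 10 was then called in TNF (Arc, log2 difference 0.54, SE 0.22) and 0 in the other 4 groups, and Nr4a1 was at 0.39 (SE 0.22). In no treated group did the arrays of any member lie wholly above or below those of Control. Over all genes, 0.126% lay wholly above and 0.12% wholly below Control in TNF, 0.00664% and 0.0598% in IL-6 Low, and 0.0199% and 0.0133% in IL-6 High. The shares were 0.113% above and 0.0797% below in TNF + IL-6 Low, and 0.0332% above and 0.126% below with the high dose.

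**Figure D1:**
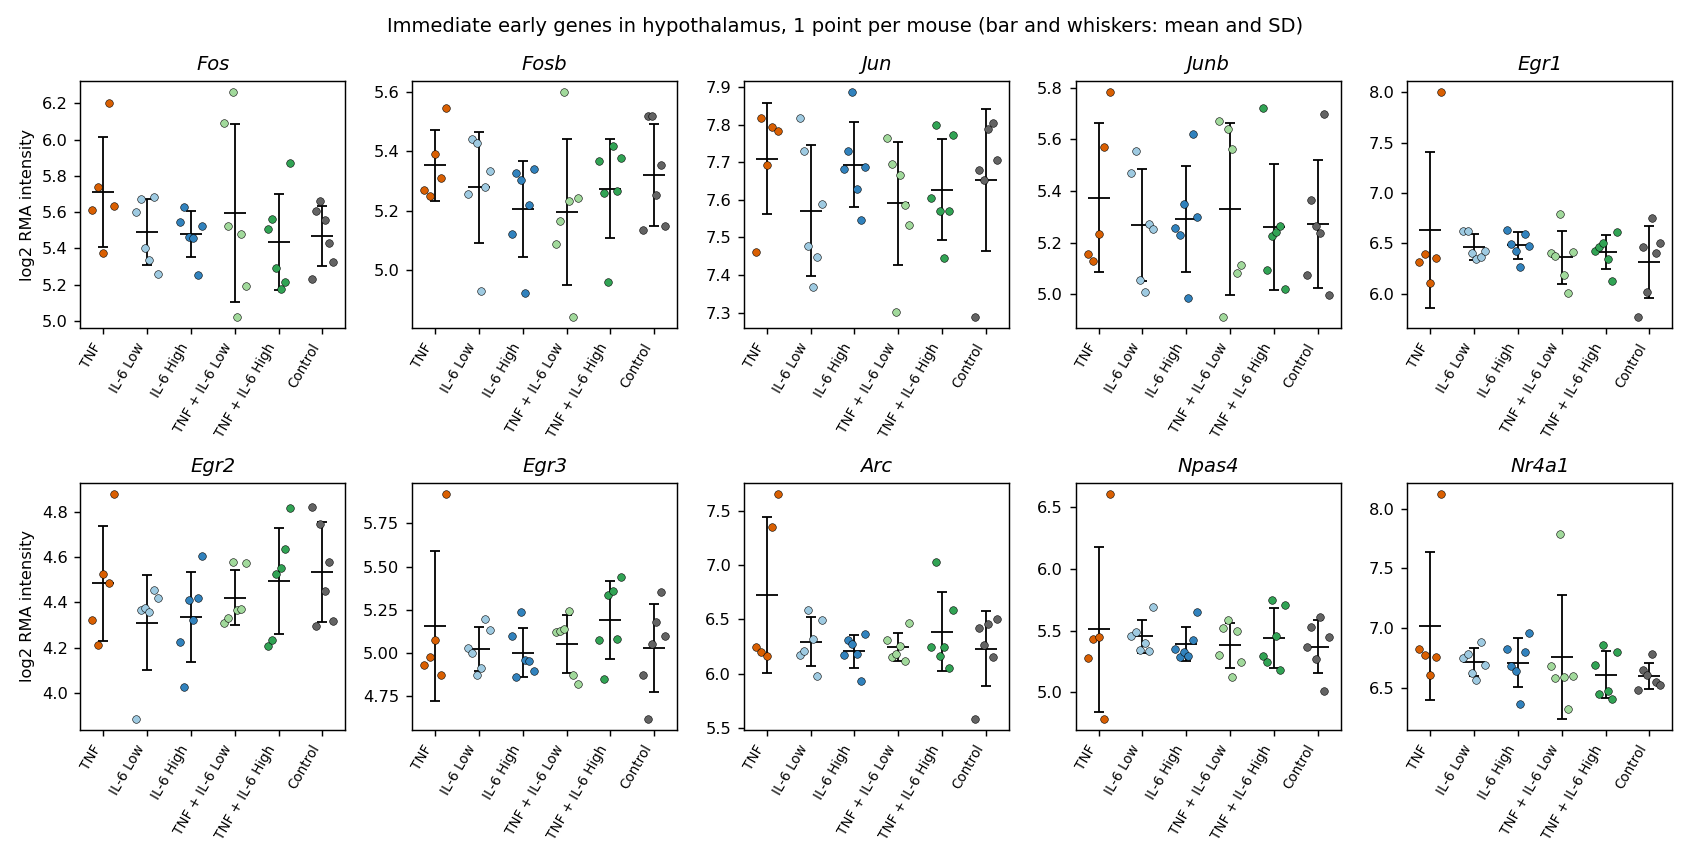
Log2 RMA intensity of the 10 immediate early genes (vertical axes, a separate range for each gene) in the 5 treated groups and, on the right, Control. Each point is 1 mouse (35 arrays, TNF replicate 4 left out), and the bar and whiskers give the mean and SD. The treated groups overlap Control for every gene, and single high points stand out in TNF for Egr1 (8.00), Egr3 (5.92), Npas4 (6.61) and Nr4a1 (8.12).

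Arc showed the largest difference from Control among the 10 genes, in TNF. Its product acts at synapses and takes part in the removal of AMPA receptors. On the 5 TNF arrays Arc was at 6.24, 6.20, 6.17, 7.35 and 7.65 (replicates 1, 2, 3, 5 and 6), against a lowest value of 5.59, a median of 6.35 and a highest of 6.4997 in Control. TNF replicates 5 and 6 lay above every Control array, while the other 3 TNF arrays lay within the Control range. The log2 difference was 0.49 (SE 0.20, 95% interval 0.09 to 0.89, limma unadjusted p = 0.0185, adjusted p = 0.911). It was 0.26 (SE 0.18) without TNF replicate 6 and -0.03 (SE 0.16) without TNF replicates 5 and 6. The unadjusted p passed 0.05 in 8 of 11 fits with 1 array left out, and not without Control replicate 1 (log2 difference 0.36), TNF replicate 5 (0.33) or TNF replicate 6. Within the array rows (the letters E to H in the array names, 1 or 2 mice a group) the TNF minus Control difference was 0.65, -0.16, 1.05 and 1.15. The only Control array in row E is replicate 1, with the lowest Arc value of all arrays used (5.59). The other treated groups differed from it there by 0.58 to 0.72. The only TNF arrays used in rows G and H are replicates 5 and 6. On TNF replicate 5 the markers of cortex and hippocampus averaged 6.89, within the range of the other arrays, and 3 of 8 were above their median over the 33 arrays other than TNF replicate 6 and TNF + IL-6 Low replicate 3. Those furthest above it were the glutamate transporter Slc17a7 (9.13, median 6.70) and Lamp5 (8.84, median 7.40). The part of these markers in the Arc values was not tested.

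Nr4a1, an orphan nuclear receptor also known as Nur77, had the next largest difference in TNF. Its TNF values were 6.82, 6.77, 6.61, 6.76 and 8.12, and its Control values ran from 6.48 over a median of 6.58 to 6.78. A single TNF array, replicate 6, was far above the rest, and replicate 1 lay slightly above the Control range. The log2 difference of 0.42 (SE 0.19, 95% interval 0.03 to 0.81, limma unadjusted p = 0.0340, adjusted p = 0.911) became 0.14 (SE 0.16) without that array. The unadjusted p also missed 0.05 without Control replicate 1 (0.40) or Control replicate 6 (0.40), and the difference within the array rows was 0.35, 0.06, 0.09 and 1.605. In the first of these rows, E, the other treated groups differed from Control by 0.20 to 0.34. In TNF + IL-6 Low, Nr4a1 was at 7.79 on replicate 3, the array with the high pituitary markers, and between 6.32 and 6.68 on the other 5. The log2 difference of that group from Control was 0.16 (SE 0.18).

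The 3 EGR genes encode zinc finger transcription factors. Egr1 was at 6.32, 6.39, 6.11, 6.36 and 8.00 in TNF, against 5.77, 6.44 and 6.75 (lowest, median, highest) in Control. Here again only TNF replicate 6 was high, and the log2 difference of 0.32 (SE 0.20) became -0.03 (SE 0.13) without it. Egr3 was at 4.93, 4.98, 5.08, 4.87 and 5.92 in TNF, against 4.62, 5.08 and 5.35 in Control, with a log2 difference of 0.13 (SE 0.14) that was -0.06 (SE 0.12) without TNF replicate 6. Egr2 was the only member with a lower mean in every treated group than in Control, with log2 differences between -0.22 (IL-6 Low, SE 0.12) and -0.04 (TNF + IL-6 High, SE 0.12). Its highest Control value, 4.82, was that of Control replicate 1, the only Control array in array row E. Without that array the Egr2 mean of Control lay below those of TNF and TNF + IL-6 High. Over the treated groups its difference from Control lay between -0.935 and -0.50 within row E and between -0.30 and -0.07 within F. It lay between -0.15 and 0.08 within G and between 0.10 and 0.56 within H. Its intensity was over 20 on 25 of the 35 arrays, so it was measured near the lower limit of the filter, and no difference passed.

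Npas4 responds to calcium and shapes inhibitory synapses. It was at 5.28, 5.43, 5.45, 4.79 and 6.61 in TNF, against 5.01, 5.41 and 5.61 in Control, so that TNF held both the lowest and the highest of all 35 values. The log2 difference was 0.14 (SE 0.17), and -0.13 (SE 0.13) without TNF replicate 6.

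The FOS and JUN families pair to form the AP-1 transcription factor. Fos was at 5.61, 5.74, 5.37, 6.20 and 5.63 in TNF, against 5.23, 5.49 and 5.66 in Control, so that TNF replicates 2 and 5 lay above every Control array. Its log2 difference was 0.24 (SE 0.16). In TNF + IL-6 Low it was spread widely, with 6.09 and 6.26 on replicates 1 and 3 and 5.02 to 5.52 on the other 4 arrays, and the log2 difference from Control was 0.13 (SE 0.15). Its differences in the other 3 groups lay between -0.03 and 0.02. For Fosb, Jun and Junb, in that order, the log2 differences from Control in the 5 groups lay between -0.13 and 0.03, between -0.08 and 0.06, and between -0.01 and 0.10. The standard errors were 0.10 to 0.11 for Fosb, 0.09 for Jun and 0.14 to 0.15 for Junb.

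Over the 10 genes, 9 had a higher mean in TNF than in Control (55.4% of all genes did), with a median log2 difference of 0.13 against 0.01 over all tested genes. Without TNF replicate 6 only 4 were higher (54.6% of all genes), with a median of -0.01. In IL-6 Low 5 were higher (45.9% of all genes), with a median of 0.01, and in IL-6 High 6 (52.6%), with 0.01. With both cytokines 7 were higher at the low dose of IL-6 (44.1%), with a median of 0.02, and 5 at the high dose (37.7%), with 0.00057. The 5 comparisons share the Control arrays. Without Control replicate 1, 8 were higher in TNF (49.4% of all genes), 3 at the low (33.9%) and 3 at the high dose of IL-6 alone (42.5%), and with both cytokines 4 at the low dose (39.4%) and 4 at the high dose (29.4%). For the mean of the 5 treated groups 7 were higher (46.1% of all genes). The log2 differences were 0.17 for Nr4a1, 0.15 for Egr1, 0.14 for Arc, 0.07 for Fos, 0.06 for Npas4 and for Egr3, 0.03 for Junb, -0.02 for Jun, -0.06 for Fosb and -0.13 for Egr2 (SE 0.07 to 0.15). Of the 10, 0 were called (0% of all genes), and 0 at an unadjusted p under 0.05 (3.08% of all genes). Control replicate 1 held the lowest of the 35 values of Egr1 (5.77) and of Arc (5.59), which lowers the Control mean in these differences.

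**Figure D2:**
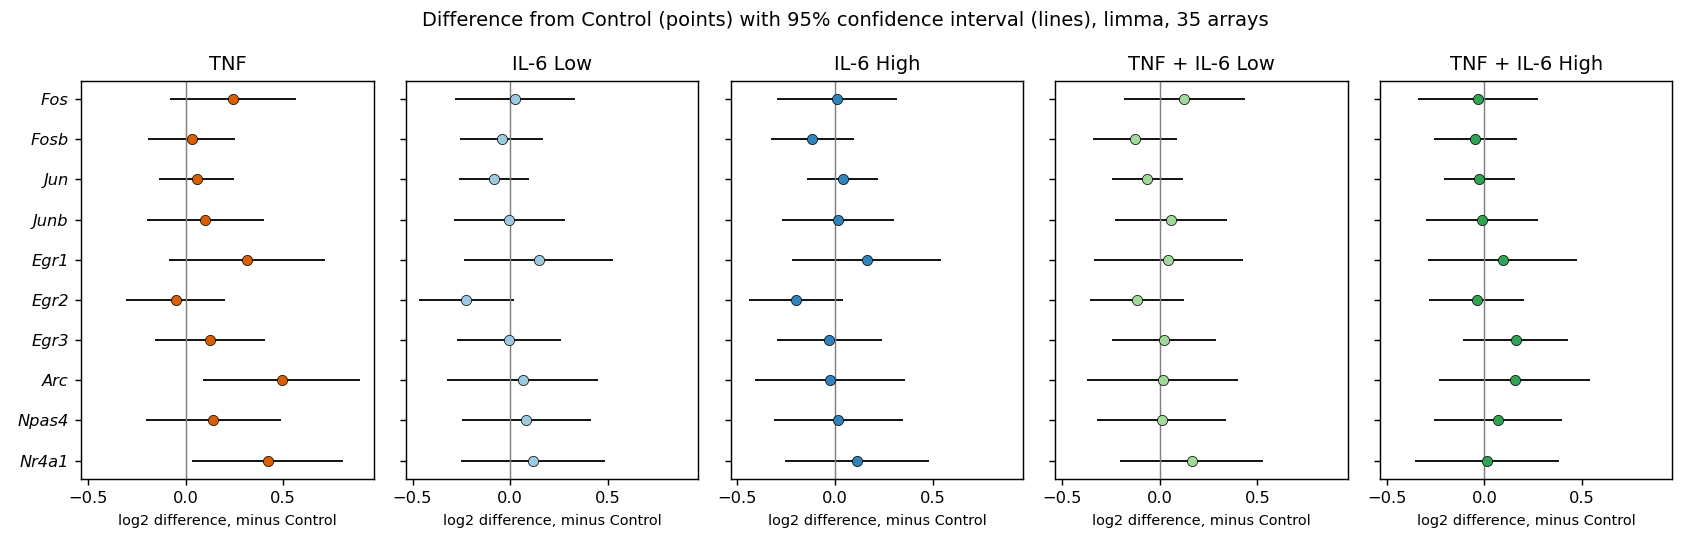
Log2 difference from Control (horizontal axis, treated minus Control) of the 10 genes in the 5 treated groups. Points are limma estimates and lines their 95% confidence intervals (35 arrays). The interval leaves out 0 only for Arc (0.09 to 0.89) and Nr4a1 (0.03 to 0.81) in TNF, before adjustment.

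The dose of IL-6 and its combination with TNFα were compared directly. IL-6 High differed from IL-6 Low by a log2 difference of at most 0.12 in size (Jun, SE 0.09), and the combined group with the high dose from that with the low dose by at most 0.16 (Fos, -0.16, SE 0.15). No member was called in either comparison, adjusted (0% of all genes) or unadjusted (1.45% and 5.35% of all genes). The higher dose had the higher mean for 4 of the 10 genes without TNFα (55.3% of all genes) and for 7 with it (48.4%). The departure from additive effects of TNFα and IL-6 was furthest from 0 for Arc at the low dose, with -0.54 (SE 0.28, limma unadjusted p = 0.0579, adjusted p = 0.991), and for Nr4a1 at the high dose, with -0.52 (SE 0.26, limma unadjusted p = 0.0559, adjusted p = 0.9605). Both contain the TNF arrays with the high values above. No departure was called, adjusted (0% of all genes) or unadjusted (3.28% at the low and 4.01% at the high dose). It was above 0 for 1 of the 10 genes at the low dose (44.1% of all genes) and for 3 at the high dose (38.2%). No member was called for any difference between the 6 groups (0% of all genes adjusted, 3.01% unadjusted). Arc had the smallest p of the 10 in limma's F test, with an adjusted p of 0.9998.

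The order of the 6 group means was headed by TNF in 8 of the 10 genes (27.6% of all genes). With TNF replicate 6 left out this held for 2 (Fos and Arc, 31.6% of all genes), and TNF was then lowest for Egr1, Egr3 and Npas4. TNF headed the order for 6 genes without Control replicate 1 (26.4% of all genes) and for 7 without Control replicates 5 and 6 (27.4%). The orders that follow are those over 35 arrays. For Arc, TNF was followed by the combined group with the high dose of IL-6, and IL-6 High was lowest. In that combined group Arc was at 7.03 on replicate 2 and between 6.05 and 6.58 on the other arrays. For Nr4a1, TNF was followed by the combined group with the low dose, and Control was lowest. Fos shared the first 4 places with Nr4a1 and was lowest in TNF + IL-6 High. Egr1 and Npas4 ended with Control, Egr2 began with it, and Egr3 was highest in TNF + IL-6 High. Control replicate 1 had the lowest Egr1 value of the 35 arrays (5.77) and the highest Egr2 value in Control (4.82). Without it Control was neither lowest for Egr1 nor highest for Egr2. Of the 50 steps between neighbours in these orders, 1 was larger than the smaller SD of the pair: TNF over IL-6 High for Egr1, a step of 0.15. The step turned round without TNF replicate 6, with Egr1 at 6.29 in TNF and 6.48 in IL-6 High.

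Between mice of one group, 9 of the 10 genes varied more than the median gene. The within-group SD was 0.36 for Arc, 0.36 for Egr1, 0.34 for Nr4a1, 0.30 for Npas4, 0.28 for Fos and 0.26 for Junb, and these 6 stood in the top 10% of all tested genes. Without TNF replicate 6 the SD was 0.22 for Egr1 and 0.20 for Npas4, and 4 genes stood in the top 10% (Arc, Fos, Nr4a1 and Junb). The median over the 10 genes was 0.27, against 0.17 over all tested genes (0.21 and 0.16 without TNF replicate 6). Jun varied least, with an SD of 0.16. The 6 groups accounted for a median of 10.6% of a member's variance, against 13.05% for all tested genes.

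The high values gathered on few arrays. TNF replicate 6 was the highest of the 35 arrays for 7 of the 10 genes (Junb, Egr1, Egr2, Egr3, Arc, Npas4 and Nr4a1), and 9 lay above their group mean there, by 0.63 on average over the 10. On TNF + IL-6 Low replicate 3 the highest values were those of Fos and Fosb, with 8 genes above their group mean, by 0.29 on average, and IL-6 High replicate 3 was the highest for Jun. At the other end, TNF replicate 1 and IL-6 High replicate 4 had 0 genes above their group mean. Control replicate 1 (Egr2) and TNF + IL-6 Low replicate 5 (Npas4) had 1 gene each. The TNF mean includes replicate 6. Without replicate 6 the TNF mean of Egr1 was 6.29, against 6.32 on TNF replicate 1. Both arrays with the highest means are those whose striatal, cortical or pituitary markers were highest, and the part of those markers in these values was not tested.

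**Figure D3:**
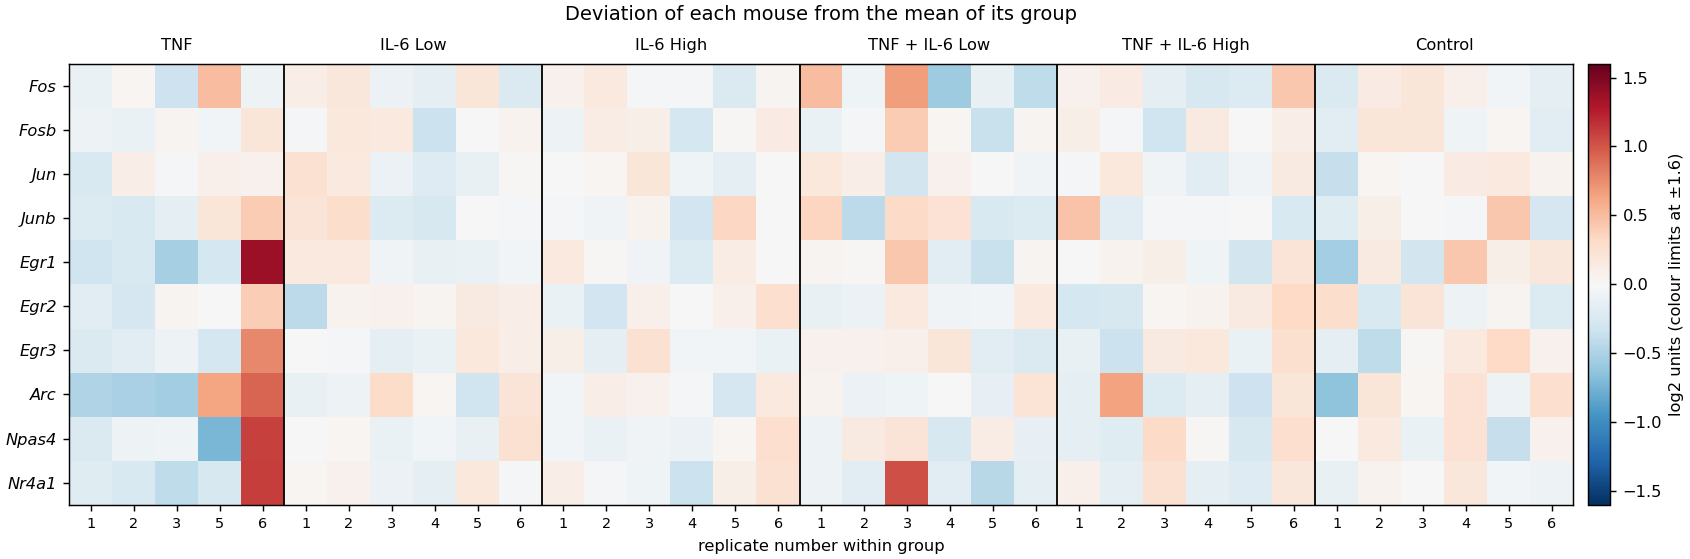
Deviation of each of 35 mice (columns, by group and replicate number) from the mean of its group for the 10 genes (rows), in log2 units. Red is above and blue below the group mean. TNF replicate 6 is red for 9 of the 10 genes, and Nr4a1 and Fos are red on TNF + IL-6 Low replicate 3.

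Whether the genes varied together between mice was examined on deviations from group means over the 35 arrays. Of the 45 pairs, 40 had a positive r, with a median of 0.27. An adjusted permutation p under 0.05 was reached by 5 pairs with Pearson's r, and by 3 of these with Spearman's rho as well. Egr1 and Nr4a1 were the closest pair (r = 0.82, permutation p = 1e-05, the smallest that 100000 resamples can give, adjusted p = 0.00045; rho = 0.73, permutation p = 3e-05, adjusted p = 0.00135). Their r was 0.74 without the 2 arrays farthest from the median of Egr1 and 0.65 without TNF replicate 6. Here and in the relations below, group means were recomputed for a named array left out, but not for the 2 farthest arrays. With the 2 farthest left out, the deviations of the other arrays thus still reflect them. The r of this pair was 0.77, 0.78, 0.82 and 0.93 within the 4 array rows of the array names (6, 12, 11 and 6 arrays). Deviations within rows, here and below, were from group means over all rows. TNF replicate 6 thus enters the deviations of TNF arrays in every row, and the 4 values are not separate checks. This pair kept its call when any 1 array was left out.

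The other pairs were less firm, and r within array rows is given as a range over the 4 rows. The 2 farthest arrays are those of the first-named gene. Npas4 and Nr4a1 had r = 0.68 and rho = 0.56 (permutation p = 0.00124 and 0.00172, adjusted p = 0.0279 and 0.0380), with r = 0.46 without the 2 farthest arrays and 0.36 without TNF replicate 6. Junb and Nr4a1 had r = 0.50 and rho = 0.49 (permutation p = 0.00443 and 0.00253, adjusted p = 0.0399 and 0.0380), with r = 0.55 without the 2 farthest arrays and 0.39 without TNF replicate 6. The 2 farthest were TNF + IL-6 High replicate 1 and Control replicate 5. TNF replicate 6 and TNF + IL-6 Low replicate 3, with the highest Nr4a1 values, stayed in. Fosb and Nr4a1 (r = 0.52, rho = 0.44, permutation p = 0.00272 and 0.00817, adjusted p = 0.0399 and 0.0568) had r = 0.31 without the 2 farthest arrays and 0.35 without TNF + IL-6 Low replicate 3. Egr1 and Arc (r = 0.62, rho = 0.45, permutation p = 0.00368 and 0.0163, adjusted p = 0.0399 and 0.0919) had r = 0.35 without the 2 farthest arrays and 0.38 without TNF replicate 6. Each of these 4 pairs lost its call without some single arrays, and for all 4 pairs TNF replicate 6 and IL-6 High replicate 4 were among them. This was so in 3 of 35 cases for Npas4 and Nr4a1 (with TNF + IL-6 Low replicate 3 as the other one), 9 for Fosb and Nr4a1, 10 for Egr1 and Arc, and 14 for Junb and Nr4a1. Within the array rows r lay between 0.27 and 0.98 for Npas4 and Nr4a1, 0.42 and 0.90 for Junb and Nr4a1, 0.47 and 0.66 for Fosb and Nr4a1, and 0.06 and 0.99 for Egr1 and Arc. Without both TNF replicate 6 and TNF + IL-6 Low replicate 3, 3 pairs were called by r: Egr1 and Nr4a1 (0.60), Egr1 and Jun (0.58), and Fos and Jun (0.50). Fos and Jun had r = 0.22 over 35 arrays. Within the array rows of the 35 arrays r ran from -0.28 to 0.90 for Egr1 and Jun, and from -0.39 to 0.82 for Fos and Jun.

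**Figure D4:**
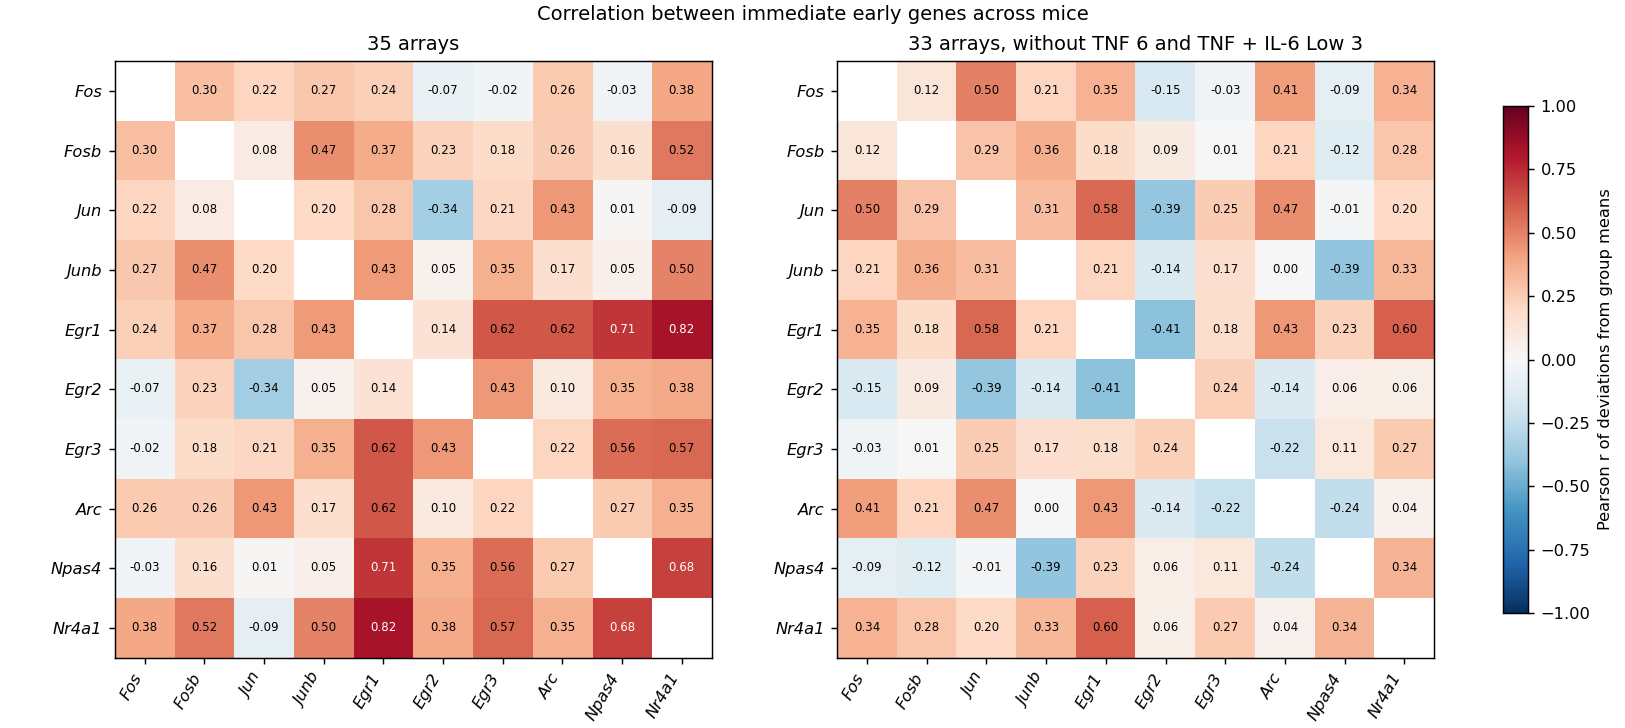
Pearson r between the 10 genes over deviations from group means, with 35 arrays on the left and 33 on the right, where TNF replicate 6 and TNF + IL-6 Low replicate 3 are left out. Red is positive and blue negative. Egr1 and Nr4a1 are at 0.82 on the left and 0.60 on the right.

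The genes were then set against 12 lists of markers of cell types and neighbouring tissues (120 relations, adjusted together). Arc went with the markers of cortex and hippocampus, the mean of 8 measured genes (r = 0.78 and rho = 0.76, each with permutation p = 1e-05, the smallest that the resamples can give, and adjusted p = 0.0012). For these relations the 2 farthest arrays are those of the marker list. The r was 0.75 without the 2 farthest arrays and 0.68 without TNF replicate 6, and it kept its call without any 1 array. Within the array rows it was 0.69, 0.87, 0.52 and 0.90. The marker level lay between 6.46 and 7.61 in TNF and between 6.15 and 6.82 in Control. Among the 8 markers in this mean, Slc17a7 had the widest range over the arrays, from 4.84 to 9.53. No other relation was called by r. By rho 3 more were called: Jun with astrocyte markers (rho = 0.60, permutation p = 0.00028, adjusted p = 0.0168, r = 0.54, 0.42 without the 2 farthest arrays and -0.21 to 0.88 within rows), Jun with cerebellar markers (rho = 0.49, permutation p = 0.00092, adjusted p = 0.0368, r = 0.27, 0.35 without the 2 farthest arrays and -0.13 to 0.69 within rows) and Junb with striatal markers (rho = 0.53, permutation p = 0.00155, adjusted p = 0.0465, r = 0.51, 0.50 without the 2 farthest arrays and 0.30 to 0.87 within rows).

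Several larger r values did not pass. With striatal markers, Egr3 had r = 0.75 and rho = 0.57 (permutation p = 0.00098 and 0.00311, adjusted p = 0.0588 and 0.0746), Nr4a1 r = 0.74 and rho = 0.58 (permutation p = 0.00485 and 0.00744, adjusted p = 0.0735 and 0.0983) and Egr1 r = 0.71 and rho = 0.43 (permutation p = 0.0231 and 0.0353, adjusted p = 0.163 and 0.251). Without TNF replicate 6 r was 0.50 for Egr3, 0.47 for Nr4a1 and 0.22 for Egr1, and without the 2 farthest arrays 0.56, 0.66 and 0.46. Within rows it ran from 0.61 to 0.89 for Egr3, 0.36 to 0.94 for Nr4a1 and 0.32 to 0.97 for Egr1. With pituitary markers Nr4a1 had r = 0.60 and rho = 0.28 (permutation p = 0.0151 and 0.117, adjusted p = 0.1395 and 0.439), with r = 0.24 without TNF + IL-6 Low replicate 3, 0.39 without the 2 farthest arrays and 0.09 to 0.90 within rows. Arc had r = -0.50 and rho = -0.46 with the hypothalamic neuron markers (permutation p = 0.00149 and 0.00726, adjusted p = 0.0596 and 0.0983), with r = -0.46 without the 2 farthest arrays, and within rows r ran from -0.70 to 0.48.

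**Figure D5:**
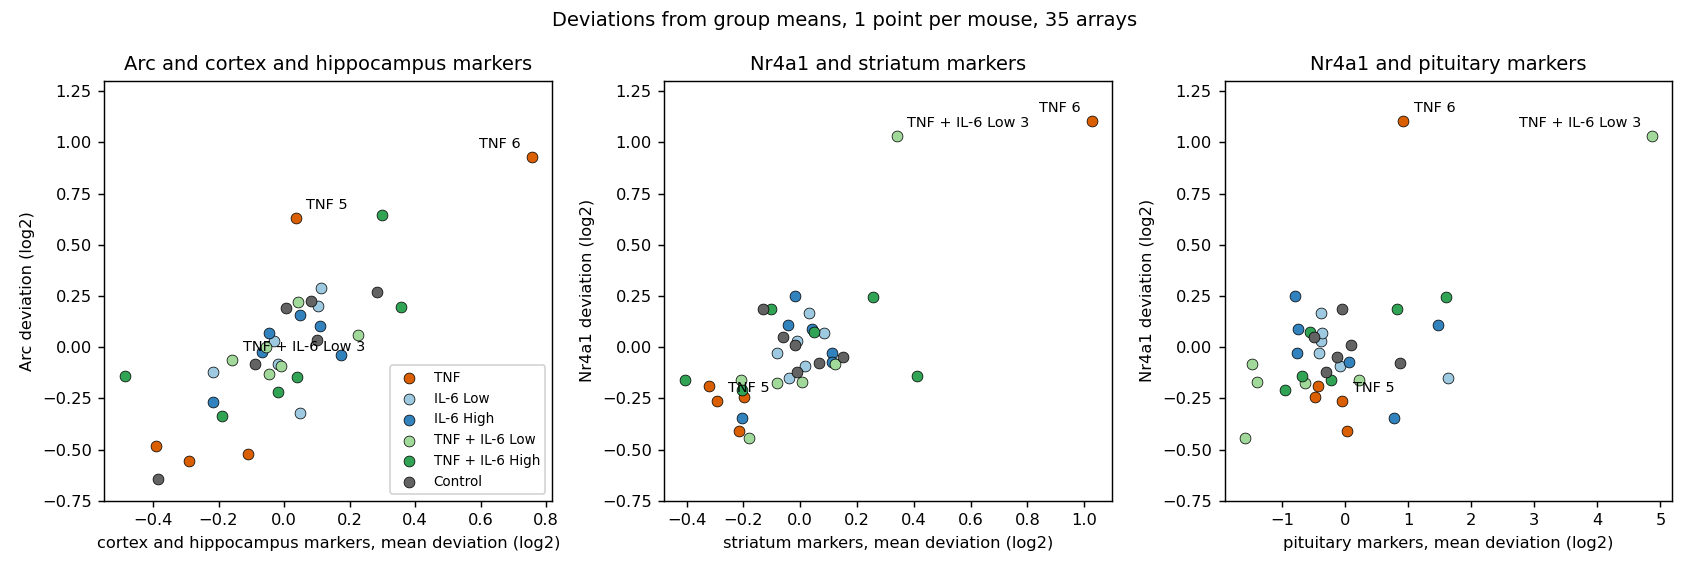
Deviation from the group mean (log2) of Arc against that of the cortex and hippocampus markers (left), and of Nr4a1 against striatal markers (middle) and pituitary markers (right). Each point is 1 of 35 mice, coloured by group. Arc and the mean of the cortical and hippocampal markers have r = 0.78, while TNF replicate 6 and TNF + IL-6 Low replicate 3 stand apart for Nr4a1.

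Genes that act beside the 10 in the same response were also counted, and 0 passed in any comparison with Control (limma, adjusted p under 0.05). In TNF 55.4% of all genes had a higher mean than in Control, and 5.29% an unadjusted p under 0.05. Of 6 measured AP-1 genes 6 were higher, with Fosl2, a partner of JUN proteins, at a log2 difference of 0.37 (SE 0.16). Of 15 other activity-induced transcription factors, 11 were higher, with Nr4a2, a relative of Nr4a1, at 0.35 (SE 0.16). Of 24 phosphatases, kinases and other feedback genes 14 were higher, with the ERK phosphatase Dusp5 at 0.33 (SE 0.13). Of 15 synaptic and secreted late-response genes 11 were higher, with the activin subunit Inhba at 0.47 (SE 0.14) and the synaptic scaffold Homer1 at 0.34 (SE 0.15). The 23 upstream kinases and factors were split, 13 higher and 10 lower, with the calcium-dependent kinase Camk4 at 0.47 (SE 0.14) and the SRF partner Elk1 at -0.21 (SE 0.09). Each of these 7 named genes had an unadjusted p under 0.05 and an adjusted p of 0.911 by limma. Without TNF replicate 6 the log2 differences were 0.19 for Fosl2, 0.43 for Nr4a2, 0.32 for Dusp5, 0.36 for Inhba, 0.12 for Homer1, 0.31 for Camk4 and -0.28 for Elk1. Each of these 5 lists held at most 1 higher and 1 lower gene with an unadjusted p under 0.05 in any other group. After the high dose of IL-6 alone they were Batf (higher), Dusp2 and Ccn2 (both lower), against 2.07% of all genes. With TNFα and the low dose they were Mapk10 (higher), Egr4 and Elk1 (both lower), against 9.58%. With TNFα and the high dose they were Ier2 (higher) and Nptx2 (lower), against 2.05%. After the low dose alone there were 0, against 1.4%.

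The genes whose deviations were most like the mean of the 10 over 35 arrays were Nr4a3 (r = 0.81), the third receptor of the Nr4a family, Lzts1 (0.81), Fbxl16 (0.79), Ski (0.78), Sipa1l1 (0.78), Bcl11a (0.78), Cracdl (0.77), Fam163b (0.76), Lmo4 (0.75) and Baiap2 (0.75). With the point of TNF replicate 6 left out, the same r values were 0.66 for Nr4a3 and 0.68 for Lzts1, and between 0.52 and 0.62 for the other 8. The deviations were not recomputed for this, so the TNF means still included that array. These r values are a description, since they were ranked among all genes and the points share the same arrays.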

How the data were processed

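The data are 36 arrays of hypothalamus, 1 per mouse, and groups were taken from the sample titles. The authors deposited RMA-normalized log2 intensities (version not given in the sources used here), and they were used without further normalization. Their rows are the array's own transcript clusters (probe sets), while the methods describe probe sets remapped to Entrez genes and a filter on at least 7 probes, neither of which was used here. The methods call genes at P under 0.05 by an intensity-based moderated test without naming an adjustment. Of 35556 clusters, 21218 named 1 gene and gave 18820 genes, with the cluster of highest mean taken where a gene had several. A gene was tested with an intensity over 20 on at least 3 of the 35 arrays.

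TNF replicate 4 was left out unless stated. It is the likely excluded array, since it stands apart. Control replicates 5 and 6 were kept as Control, although their array names hold the mouse numbers of TNF + IL-6 High replicates 5 and 6. An exchange was not tested. R 4.3.3 with limma 3.58.1 (eBayes with an intensity trend, Benjamini-Hochberg over 15049 genes, threshold 0.05) fitted all groups together. Relations were tested on deviations from group means with 100000 permutations within groups (Python 3.11.15, numpy 2.4.6, pandas 2.3.3). The tests were checked on simulated data. The number of arrays limits the precision, with a median standard error of a log2 difference of 0.1 in TNF. Each array was taken as a separate mouse, and p values measure the spread between these mice.

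Named genes are the 10 members; up to 2 genes of smallest p in each other list; and the 10 genes most like the members' mean. Members, lists and alternatives were chosen with earlier results of these data known. Doses and times come from the methods. Replicate numbers were not taken to pair mice, since no label says that they do. No protein sequences were used, and promoter windows of Arc, Egr1 and Egr3 are not shown here.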

Additional observations from a re-analysis of the deposited data

Results flagged for a closer look

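Of the 60 combinations of gene and group, 10 held an array far from the others of its group by Dixon's criterion, where chance flags about 1 in 20 groups. High values on TNF replicate 6 were those of Egr1 at 8.00 (6.11 to 6.39 on the other 4 TNF arrays), Egr3 at 5.92 (4.87 to 5.08) and Nr4a1 at 8.12 (6.61 to 6.82). Nr4a1 was also high on TNF + IL-6 Low replicate 3, at 7.79 (6.32 to 6.68 on the other arrays of that group). Junb was high on TNF + IL-6 High replicate 1, at 5.72 (5.02 to 5.27), and Npas4 on IL-6 High replicate 6, at 5.65 (5.29 to 5.42). Fosb was low on IL-6 Low replicate 4, at 4.93 (5.26 to 5.44), and on TNF + IL-6 High replicate 3, at 4.96 (5.26 to 5.42). Egr2 was low on IL-6 Low replicate 1, at 3.89 (4.36 to 4.45), and Jun on Control replicate 1, at 7.29 (7.65 to 7.81).

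On TNF replicate 4, which entered no comparison, 4 genes lay above the highest Control array: Fos at 6.24 (Control at most 5.66), Fosb at 5.99 (5.52), Junb at 6.91 (5.70) and Egr2 at 6.38 (4.82). Jun was at 4.86 on that array, against 7.29 to 7.81 in Control. The spread of all its values was narrower than on the other arrays, as given above.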

How the results depend on the processing

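No member passed an adjusted p of 0.05 in any comparison under any alternative run (36 arrays, other intensity filters, median centring, quantile normalization, array weights, the mean of all clusters, no trend, only the groups compared, array row or replicate number as a block, and each array left out). The settings without TNF replicate 6, TNF + IL-6 Low replicate 3, both of these, TNF replicates 5 and 6 or Control replicates 5 and 6, those without Control replicate 1 for the order and spread of the members, and each of the 35 arrays in turn for the relations, were chosen after seeing the data. The count of members at an unadjusted p under 0.05 in TNF was 2, and was 1 with all 36 arrays, 0 with only the groups compared, 0 with array weights, 0 without TNF replicates 5 and 6, 1 without Control replicates 5 and 6, and 0 to 2 with 1 array left out (0 without TNF replicate 6 or Control replicate 1, 1 without TNF replicate 5 or Control replicate 6). It was 1 in place of 0 in TNF + IL-6 High with array weights, in the departure at the low dose with array row as a block, and in that at the high dose with only the groups compared. With 1 array left out it lay between 0 and 1 for each dose of IL-6 alone, for both departures and for the F test.

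No label says that a replicate number pairs mice, and the check for it was mixed. The mean r of same-numbered arrays was 0.06 (-0.01 for different numbers), 36 of 85 same-numbered pairs had an r over 0.1, and 11 of 35 arrays correlated best with their own number, where 5.83 would do so if numbers carried nothing. Each number lies in 1 array row, so number and row cannot be told apart. With the replicate number as a block, 1 member in place of 0 was called unadjusted in IL-6 Low and in the departure at the low dose, 10 pairs were called by r and 10 by both measures, and 9 marker relations.

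Without TNF replicates 5 and 6 the Arc difference in TNF was -0.0289. For the mean of the 5 treated groups, Jun was at 0.03628 and Npas4 at -0.008704 without Control replicates 5 and 6, and Fos was at -0.003823 and Junb at -0.009472 with array weights. With 1 array left out, Jun lay between -0.0880 and 0.0154, Junb between -0.0229 and 0.117, Egr3 between -0.0266 and 0.1197, and Npas4 between -0.00885 and 0.111. Pairs called by r were 2 with median centring, 3 without TNF replicate 6 and TNF + IL-6 Low replicate 3 together, and 1 to 7 with 1 array left out. Pairs called by both measures were 1, 1, and 1 to 4 in the same settings. Marker relations called by r were 6 with 36 arrays, 3 with median centring and 1 to 9 with 1 array left out. With 36 arrays r of Junb and Nr4a1 was -0.0393. The cause of these changes was not tested.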
